A study of Mus musculus with 2 samples.

Results

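The Kelch-like genes carry the mouse symbols Klhl and Kbtbd. Of 47 such symbols in the RefSeq gene table, 45 were matched by a probe on the array, out of 23458 genes matched in all, and the other two, Klhl3 and Kbtbd8os, were not analysed here. A gene was represented by the probe with the highest mean signal over both arrays, and the 45 genes had 64 probes. The 5 genes known to be enriched in striated muscle, Klhl40, Klhl41, Klhl31, Klhl38 and Klhl33, are described apart from the other 40. Expression was measured on 2 one-colour arrays, 1 for a pool of 4447 fast fibres and 1 for a pool of 1659 slow fibres. The donors of both pools were 8 mice, all male, aged 6 to 8 weeks and GFP-Myh7 heterozygous (G/+), in which fibres with slow myosin carry green fluorescence. Fast fibres lacked the fluorescence and were picked from the extensor digitorum longus (EDL), and slow fibres showed it and were picked from the soleus. The slow sample also has a tissue label of EDL, whereas its source label and protocol name the soleus. Fibre type and muscle of origin therefore cannot be told apart. With 1 array per pool there is no replicate, no p-value was computed, and a difference is described by its size against a rule of 2-fold.

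Kelch-like proteins pair a BTB domain, which binds the scaffold Cul3, with a Kelch propeller, which binds other proteins. Many of them serve as the substrate adaptors of Cul3-RING ubiquitin ligases, so each can direct its own set of proteins to ubiquitylation. In skeletal muscle several members act at the sarcomere instead of, or beside, protein turnover. KLHL40 and KLHL41 stabilise thin-filament proteins such as nebulin and leiomodin 3, and loss of either, or mutation of KBTBD13, causes nemaline myopathy in humans.

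The values are processed signals, in the linear units of the scanner, and log2 levels, which are log2 signals minus the log2 of the 75th percentile of the same array. A log2 level of 0 is thus the 75th percentile, and each difference is the slow level minus the fast level. The percentile was 179 for fast and 192 for slow fibres. The ± value after a difference is the error that the scanner software assigns to the signals, and it holds no biological spread. Levels of different genes come from different probes and are not ranked against each other. Spots well above background made up 52.3% of the fast and 50.9% of the slow array, and none was saturated. The labels held against fibre markers: all 5 slow-fibre markers were higher in the slow pool, with a median log2 difference of 8.08, and all 7 fast-fibre markers were higher in the fast pool, with a median of -6.42. Summed signals of 5 general muscle-fibre markers, in units of the 75th percentile, were 2781 and 2607 in the fast and slow pools. Markers of several other cell types were lower in the slow pool, with sums of 158 and 38.7 for 7 fibroblast genes, 16.9 and 3.53 for 7 endothelial genes, 16.7 and 4.8 for 7 immune genes, of which Ptprc and Cd79a were not well above background, 4.76 and 1.55 for 5 Schwann cell genes, and 87.2 and 32.1 for 3 erythrocyte genes. Of 6 smooth muscle and pericyte markers, 5 were lower in the slow pool, and the median log2 difference of all 6 was -0.78. The sums of the 6, 791 and 720, came mostly from Acta2, at log2 levels of 9.61 and 9.48. Among the 5, Acta2, Myh11 and Tagln were within 2-fold. Cspg4 went the other way, at a log2 difference of 1.24, or 2.37-fold higher in the slow pool. Satellite cell markers, among which Myf5 was not well above background, summed to 5.36 and 5.92, and neuronal markers, among which Syt1 and Nefl were not, to 8.80 and 11.6. These sums came mostly from Cdh15 and Snap25, at log2 differences of 0.28 and 0.41. Pax7 was at 0.60 and Stmn2 at 0.67, but Vcam1 was at -1.71. Rbfox3 was detected in the fast pool alone, at least 2.49-fold higher there. In the lists above, the immune gene Cd3e and the Schwann cell gene S100b were near even, at -0.04 and -0.05. The part of these other cells in the differences below was not tested. In pools of this kind, fewer cells of a type and less RNA per cell cannot be told apart.

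Under the main scaling, the family had members past 2-fold on both sides and a median difference near that of all genes. Well above background were 37 of the 45 genes on both arrays, 1 in the fast pool alone, 2 in the slow pool alone and 5 in neither. Of the 40 detected members, 6 exceeded 2-fold on the slow side (15.0%, against 10.8% of 14644 genes over the whole array) and 6 on the fast side (15.0%, against 14.3%). In either direction, 12 members (30%) passed 2-fold, against 25.0% of all genes. The median log2 difference of the members on both arrays was 0.09, against 0.05 for all genes, and the median size of the difference, sign left out, was 0.64 against 0.47. The member median moved with the scaling, as did that of all genes. It was 0.51 when the arrays were scaled on spike-in controls, against 0.47 for all genes. In the authors' value table it was -0.02, against -0.06. These shares describe 2 arrays and are near the background, so nothing particular to the family is read from them. What follows is which genes stood on each side.

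**Figure D1:**
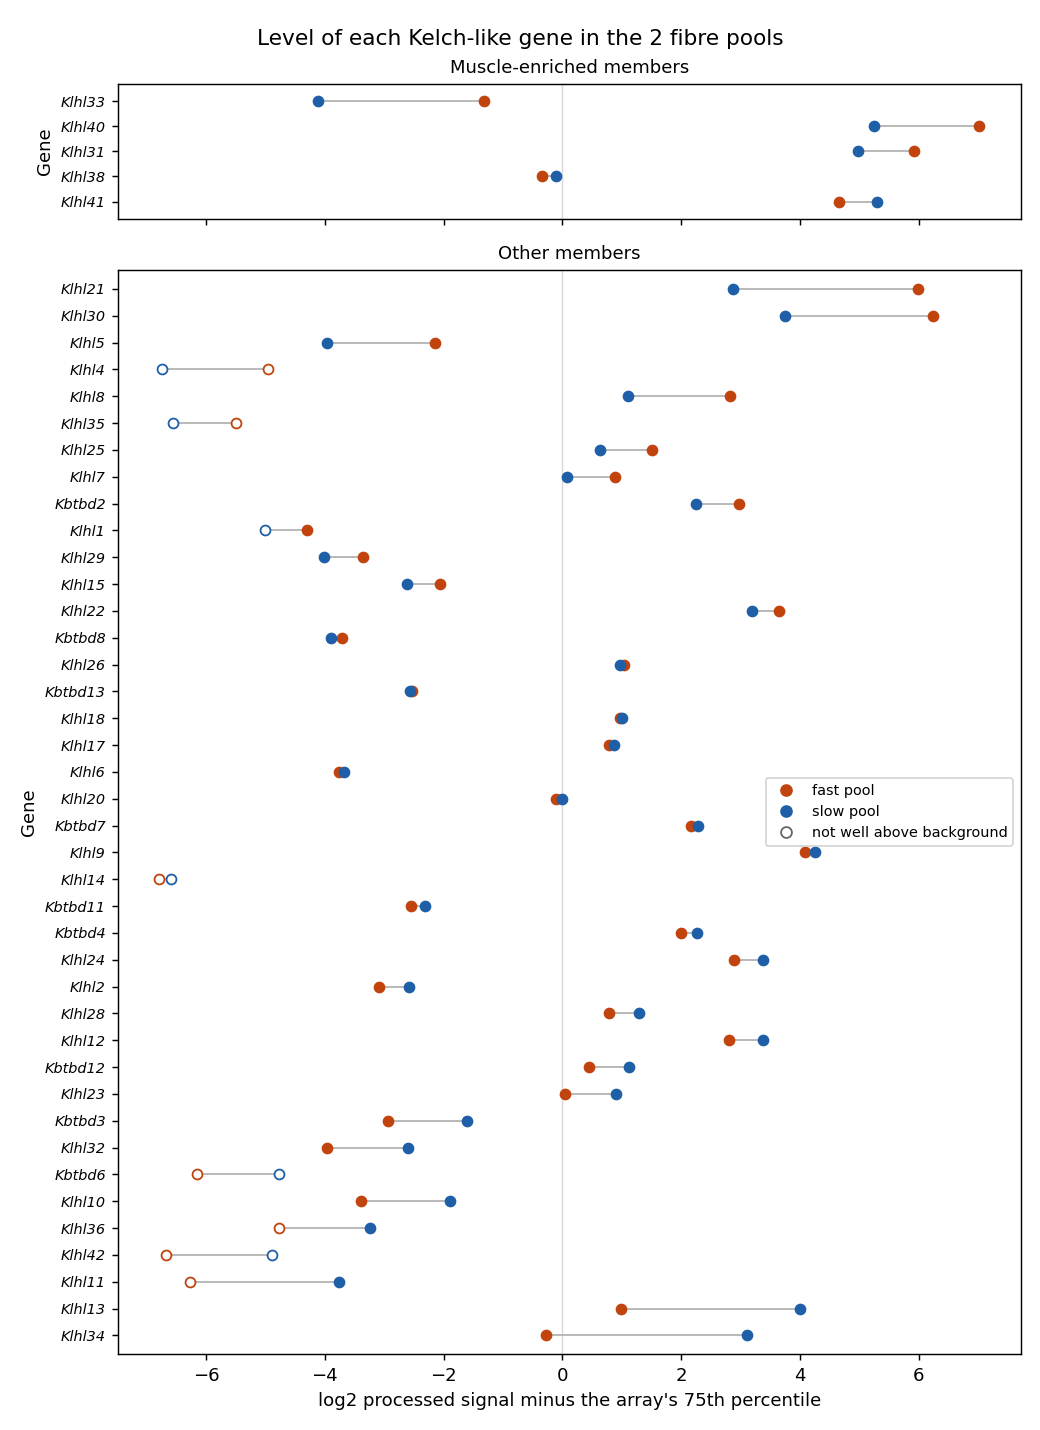
Log2 level (log2 processed signal minus the 75th percentile of the array, horizontal axis) of each of the 45 Kelch-like genes in the fast pool (orange) and the slow pool (blue), 1 array each. Open points were not well above background. Klhl21 and Klhl30 lie far to the right in fast fibres, and Klhl34 and Klhl13 have the widest gaps in the direction of slow fibres.

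Of the 5 muscle-enriched genes, Klhl33 and Klhl40 were more than 2-fold higher in the fast pool (40%, against 14.3% of all genes), 3 lay within 2-fold and none was past it on the slow side (against 10.8%). With 5 genes named for their muscle enrichment, nothing is read from that share. Their median log2 difference was -0.95, with a range from -2.79 to 0.64. Promoter sequences are shown for 3 of the 4 that were searched (all but Klhl38), since these 3 hold one of 2 motifs of muscle gene control, the E-box CAGCTG, which binds MyoD-family factors, and the binding motif of MEF2. They are the 250 bases before the annotated start in RefSeq, build GRCm38.p6, read 5′ to 3′ on the strand of the gene, with the motifs in capitals. Where a gene has several listed starts, a window with the most of these motifs was picked. The Klhl40 window is chr9:121777357-121777606 on the plus strand, with a CAGCTG that starts 10 bases before the gene's start. The Klhl41 window is chr2:69669870-69670119 on the plus strand, with a CAGCTG at 127 bases and a MEF2 motif at 63 bases before the start. The Klhl33 window is chr14:50897484-50897733 on the minus strand, upstream of 1 of its 2 listed starts, with a MEF2 motif at 50 bases before the start.
Klhl40: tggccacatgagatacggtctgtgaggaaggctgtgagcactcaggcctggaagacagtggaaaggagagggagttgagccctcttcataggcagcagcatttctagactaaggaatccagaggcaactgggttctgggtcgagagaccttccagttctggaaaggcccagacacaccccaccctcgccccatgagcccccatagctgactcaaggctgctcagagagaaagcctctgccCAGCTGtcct
Klhl41: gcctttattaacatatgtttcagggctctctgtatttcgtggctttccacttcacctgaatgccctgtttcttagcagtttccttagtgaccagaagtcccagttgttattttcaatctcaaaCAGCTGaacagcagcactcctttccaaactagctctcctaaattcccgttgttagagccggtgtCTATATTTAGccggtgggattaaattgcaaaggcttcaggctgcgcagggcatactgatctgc
Klhl33: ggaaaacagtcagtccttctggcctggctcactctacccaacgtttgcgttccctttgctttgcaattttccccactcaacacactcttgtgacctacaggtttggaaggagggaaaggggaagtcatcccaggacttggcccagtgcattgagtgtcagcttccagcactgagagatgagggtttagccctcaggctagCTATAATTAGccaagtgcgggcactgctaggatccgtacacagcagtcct

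Klhl40, the nebulin and leiomodin 3 stabiliser, gave a signal of 23283 in the fast pool and 7284 in the slow pool, or log2 levels of 7.02 and 5.25. Klhl40 was thus 3.42-fold higher in fast fibres, with a log2 difference of -1.77 ± 0.20. A second Klhl40 probe, at 4973 and 1627, gave -1.71. Both probes place Klhl40 on the fast side by nearly the same amount, and the gene remained well expressed in slow fibres.

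Klhl41, its close relative, which also binds nebulin, was at 4495 in the fast pool and 7502 in the slow pool. Its log2 levels were 4.65 and 5.29, a difference of 0.64 ± 0.20, or 1.56-fold toward slow fibres. The 2 nebulin-binding members thus lay on opposite sides of 0, with Klhl41 short of 2-fold under the main scaling and past it, at 1.06, when the arrays were scaled on the spike-in controls. The promoters of both hold CAGCTG, as printed above.

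Klhl31, whose loss in mice causes a congenital myopathy and which acts on filamin C, was at 10862 and 6026 in the fast and slow pools. Its log2 levels of 5.92 and 4.97 differed by -0.95 ± 0.20, or 1.93-fold, and a second probe at 867 and 474 gave -0.97. Klhl31 therefore sat just inside the 2-fold line on both probes. Under 3 other scalings it went to between -1.01 and -1.06, past the line, and the spike-in scaling took it to -0.53.

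Klhl33 and Klhl38 were much dimmer. Klhl33 gave a signal of 71.3 in the fast pool and 11.1 in the slow pool, where the lowest signal well above background was 8.81. Its log2 levels were -1.33 and -4.12, a difference of -2.79 ± 0.32, or 6.91-fold, from 1 probe with 1 spot per array. With another background correction (normexp, which adds an offset of 50 to every signal) the difference was -1.07 or -1.01. The offset is well above the slow-pool signal and by itself draws the difference toward 0. The size for Klhl33 thus depends on this setting, and the 2-fold call was kept there by less than the software error. Klhl38, at 141 and 179, had log2 levels of -0.34 and -0.10 and differed by 0.24 ± 0.21, about the size of its software error.

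Of the other 40 genes, 35 were detected. The slow side had 6 of these past 2-fold (17.1%, against 10.8% of all genes), the fast side 4 (11.4%, against 14.3%), and 25 lay between. The slow count was 9 under the spike-in scaling and 2 under each of the 2 normexp settings. Among the 32 on both arrays the median log2 difference was 0.10, with 19 above 0 and 13 below. Their differences ran from -3.12 for Klhl21 to 3.38 for Klhl34. Promoters are shown for Klhl21, Klhl13 and Klhl34, the genes with the widest measured differences outside the muscle-enriched group. They are shown because each holds CAGCTG (capitals) in the 250 bases before a listed start. The Klhl21 window is chr4:152008641-152008890 on the plus strand, and the motif starts 165 bases before the start. The Klhl34 window is chrX:157818185-157818434 on the plus strand, with the motif at 90 bases. The Klhl13 window is chrX:23365064-23365313 on the minus strand, with the motif at 43 bases. It lies upstream of 1 of 5 listed starts and was picked among them for holding the motif.
Klhl21: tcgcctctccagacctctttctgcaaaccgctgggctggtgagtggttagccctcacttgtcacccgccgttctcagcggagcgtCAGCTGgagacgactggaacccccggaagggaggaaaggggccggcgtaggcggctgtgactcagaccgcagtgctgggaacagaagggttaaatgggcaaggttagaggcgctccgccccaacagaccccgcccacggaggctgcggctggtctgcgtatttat
Klhl34: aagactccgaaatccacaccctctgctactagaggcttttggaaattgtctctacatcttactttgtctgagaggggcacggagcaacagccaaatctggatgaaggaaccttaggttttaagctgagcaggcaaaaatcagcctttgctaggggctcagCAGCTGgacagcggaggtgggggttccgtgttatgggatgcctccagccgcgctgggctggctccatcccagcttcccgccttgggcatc
Klhl13: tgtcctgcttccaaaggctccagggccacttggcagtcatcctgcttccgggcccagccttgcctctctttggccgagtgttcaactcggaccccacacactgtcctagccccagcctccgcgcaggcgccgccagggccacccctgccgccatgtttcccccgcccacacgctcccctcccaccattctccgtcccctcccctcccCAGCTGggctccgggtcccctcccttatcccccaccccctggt

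On the fast side, Klhl21 stood farthest out. KLHL21 is known in dividing human cells as a Cul3 adaptor for the mitotic kinase Aurora B. Its signal was 11388 in the fast pool and 1404 in the slow pool, with log2 levels of 5.99 and 2.87, a difference of -3.12 ± 0.20, or 8.68-fold. Klhl30 followed, at 13564 and 2588, with log2 levels of 6.24 and 3.75, a difference of -2.49 ± 0.20, or 5.61-fold. Both genes are bright in fast fibres and kept a level well above the 75th percentile in slow fibres. Klhl8 was at 1272 and 410, with log2 levels of 2.83 and 1.10, a difference of -1.73 ± 0.20, or 3.32-fold. Klhl5 was dim, at 40.7 and 12.3, with a difference of -1.82 ± 0.34, or 3.53-fold, which shrank to -0.57 and -0.51 under the 2 normexp settings and so lost its call. A second Klhl5 probe was on neither array well above background. Klhl21, Klhl30 and Klhl8 stayed past 2-fold under all 9 scalings tried. Each of these genes had 1 probe, with 1 spot per array. Rescaling cannot check a probe, so no second probe stands behind these values.

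On the slow side, Klhl34 and Klhl13 stood apart from the rest. Klhl34 was at 148 in the fast pool and 1651 in the slow pool, with log2 levels of -0.27 and 3.11, a difference of 3.38 ± 0.20, or 10.4-fold. Its value rests on 1 probe, with 1 spot per array. Klhl13, whose human counterpart works with KLHL9 as an adaptor for Aurora B, was at 353 and 3061, with log2 levels of 0.98 and 4.0. Its difference was 3.02 ± 0.20, or 8.11-fold, and a second probe at 77.3 and 773 gave 3.22. Klhl34 was at percentile 99.3 and Klhl13 at percentile 98.9 of the 12846 genes measured on both arrays, ordered from fast to slow. These 2 were the only slow-side members past 2-fold under all 9 scalings, which include the 2 normexp settings that draw dim genes toward 0. Both lie on the X chromosome, as do Klhl15, at 43.1 and 31.2 with a difference of -0.56, and Klhl4, which was on neither array well above background. Klhl9, the partner of KLHL13 in human cells, was bright and close to even, at 3032 and 3657 with a log2 difference of 0.17 ± 0.20. The genes for 3 Cul3 adaptors of Aurora B were thus placed differently, with Klhl21 higher in fast fibres, Klhl13 higher in slow fibres and Klhl9 near 0, while Aurkb, which encodes Aurora B, was on neither array well above background.

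The remaining slow-side members were dim. Klhl10, needed for sperm formation and male fertility in mice, was at 17.0 and 51.8, a log2 difference of 1.51 ± 0.24, or 2.85-fold, and its second probe was well above background in the slow pool alone, at 1.83 and 12. Klhl32 was at 11.5 and 31.7, a difference of 1.37 ± 0.29, or 2.59-fold, and its second probe was on neither array well above background. Kbtbd3 was at 23.5 and 63.2, a difference of 1.33 ± 0.23, or 2.52-fold, the nearest to the 2-fold line among the slow-side members on both arrays. Under the 2 normexp settings these 3 genes were between 0.29 and 0.62 and lost their calls. Klhl36 was well above background in the slow pool alone, at 6.52 and 20.2, and was at least 2.62-fold higher there, a bound set against the lowest signal well above background on the fast array, 7.21. That bound was 1.39 on the log2 scale and 0.16 or 0.23 with normexp. Klhl11, also detected in the slow pool alone at 2.32 and 14.2, was at least 1.83-fold higher there, a log2 bound of 0.88 that became 1.30 under the spike-in scaling and 0.16 or 0.22 with normexp. Klhl1, a gene best known from neurons, was detected in the fast pool alone at 9.06 and 5.93, and its bound was at least 1.10-fold.

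**Figure D2:**
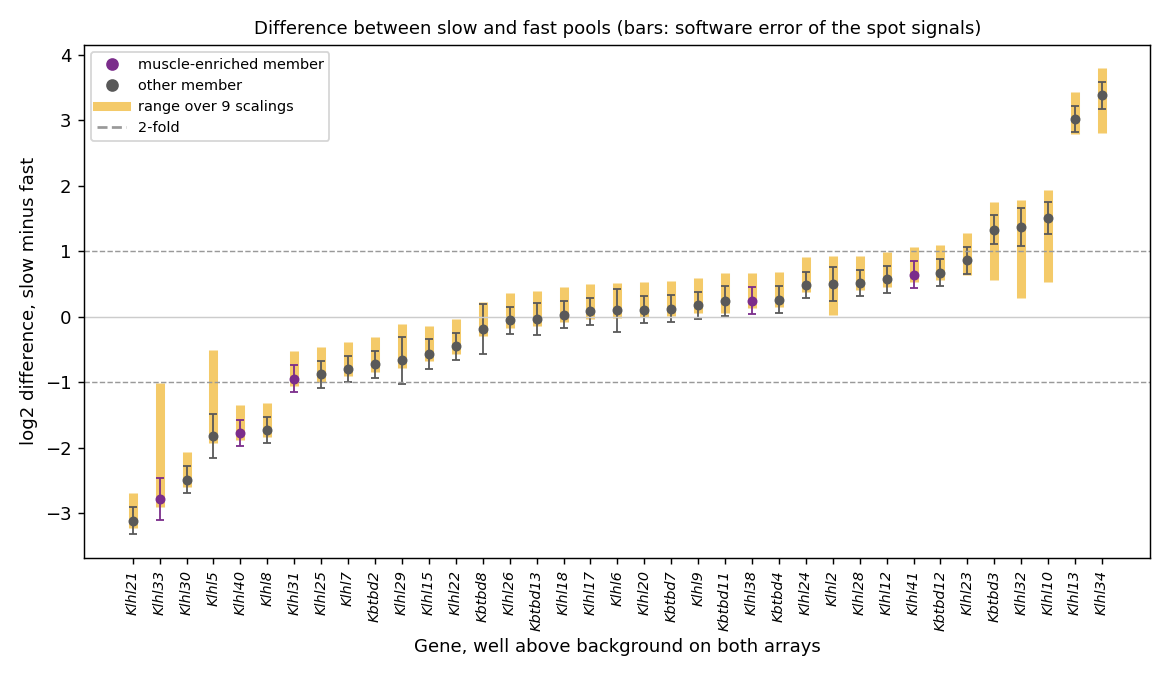
Log2 difference, slow minus fast (vertical axis), of the 37 Kelch-like genes well above background on both arrays, in order. Points are the main values with the software error of the signals as bars, purple for muscle-enriched genes and grey for the others; yellow bars span 9 scalings and dashed lines mark 2-fold. The long yellow bars of Klhl33, Klhl5, Klhl32, Klhl10 and Kbtbd3, all dim genes, run toward 0.

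Members known from muscle outside the first group were not on one side. Kbtbd13, whose human counterpart is a nemaline myopathy gene, was dim and even, at 31.1 and 32.5, a log2 difference of -0.03 ± 0.24 that turned to 0.39 under the spike-in scaling. Kbtbd12 was at 245 and 418, with log2 levels of 0.45 and 1.12 and a difference of 0.67 ± 0.20. Its other two probes gave 0.40 and 0.18, and the spike-in scaling gave 1.09. Klhl30, described above, was the member known from muscle with the widest gap on the fast side apart from Klhl33.

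Some of the brighter members within 2-fold have known roles, and those described here were chosen after their values were seen. Kbtbd2, an adaptor for the p85 subunit of phosphoinositide 3-kinase in insulin signalling in mice, was at 1403 and 907 and differed by -0.73, with 2 further probes at -0.27 and -0.15. Klhl12, which acts on the COPII coat protein SEC31, was at 1253 and 1990 and differed by 0.57. Klhl24, known from keratin turnover in human skin, was at 1330 and 1993 and differed by 0.49, with a second probe at 0.37. Klhl22, at 2240 and 1753, differed by -0.45, and Kbtbd7, a human adaptor for TIAM1, was even at 802 and 934, a difference of 0.12.

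The members closest to the rule on its inner side were Klhl31 on the fast side, as given above, followed by Klhl25, at 509 and 296, with a log2 difference of -0.88 ± 0.20. The slow side had Klhl23 closest among genes on both arrays, at 184 and 358, with 0.86 ± 0.20, which the spike-in scaling took to 1.28. The second Klhl25 probe gave -0.01, the widest range among members with at least 2 probes on both arrays. Klhl7, at 330 and 203, gave -0.80 with a second probe at -1.02, and Klhl28, at 308 and 471, gave 0.51 with a second probe at 0.67. The second probe of Kbtbd8 was well above background in the slow pool alone, at 2.75 and 21.7, whereas the Kbtbd8 probe used was even at 13.7 and 12.9, a difference of -0.19, and the median of both Kbtbd8 probes was 1.35. Over the 9 members with at least 2 probes on both arrays, the probes of a member agreed in sign in 9, with a median range of 0.20 between them and a largest range of 0.87. The other members within 2-fold were Klhl29 at -0.67, Klhl26 at -0.05, Klhl18 at 0.03, Klhl17 at 0.08, the B-lymphocyte gene Klhl6 at 0.09, Klhl20 at 0.11, Kbtbd11 at 0.24, Kbtbd4 at 0.26 and Klhl2 at 0.51. The 5 members that neither array showed well above background were Kbtbd6, Klhl14, Klhl35, Klhl4 and Klhl42, with signals from 1.62 to 7.0, and no fold is given for them.

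**Figure D3:**
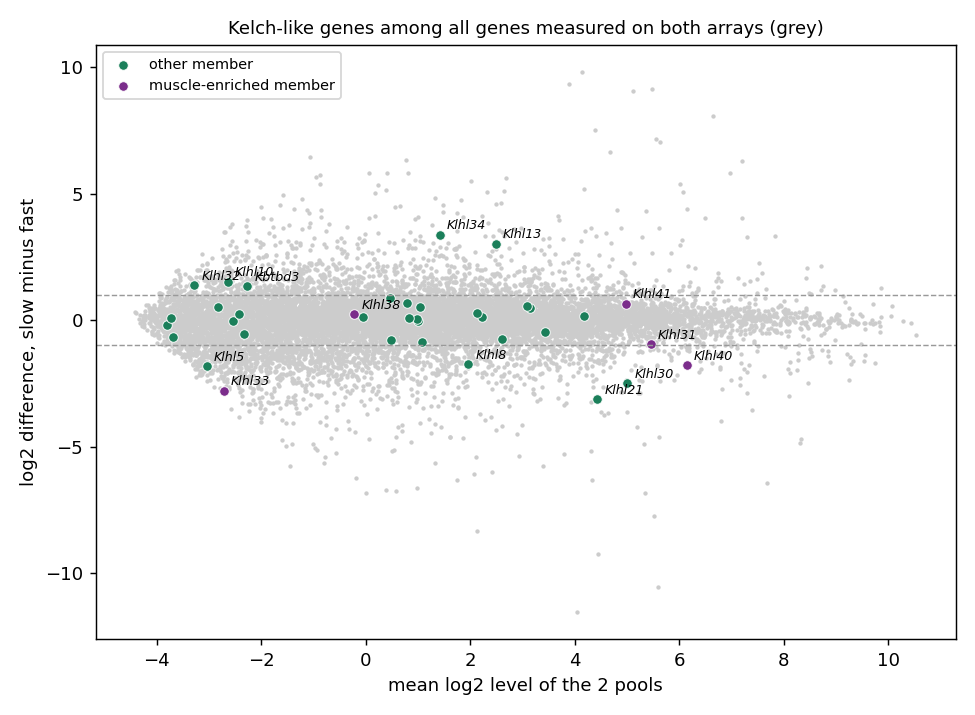
Log2 difference, slow minus fast (vertical axis), against the mean log2 level of both pools (horizontal axis) for the 12846 genes measured on both arrays (grey), with muscle-enriched Kelch-like genes in purple, the others in green and dashed lines at 2-fold. Klhl21, Klhl30 and Klhl40 lie below the lower 2-fold line at high levels, while Klhl33, Klhl5, Klhl32, Klhl10 and Kbtbd3 lie at low levels.

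The partners of the muscle members were set beside them. Neb, which encodes nebulin, had log2 levels of 6.67 and 6.43 in the fast and slow pools, a difference of -0.24, and Flnc, which encodes filamin C, had 8.10 and 8.05, a difference of -0.05. Lmod3, which encodes leiomodin 3, had 6.07 and 7.39, a difference of 1.31, or 2.49-fold higher in slow fibres, the side opposite to Klhl40. All of these are transcript signals, and the stability of the proteins was not measured. These 3 genes were singled out after their values were seen. The whole list held 14 muscle Kelch partners and nemaline myopathy genes. Its slow side had 5 past 2-fold (35.7%, against 10.8% of all genes), its fast side 1 (7.14%, against 14.3%), and 8 lay between. The median difference was -0.01. With 14 genes in a chosen list, nothing is read from these shares. The 2 highest of the 14 were the slow-fibre isoform genes Tpm3, a tropomyosin at 9.07, and Tnnt1, a troponin T at 6.29. The lowest was the fast-fibre troponin T gene Tnnt3 at -6.42. The other two past the rule, also named after the values were seen, were Lmod2 at 2.06 and Cfl2 at 1.49, and a second Cfl2 probe gave 0.25. The 6 probes of Tpm3 ran from 1.30 to 9.07.

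For the ligase that the Kelch-like proteins serve, a list of 14 genes covered Cul3, its RING partner and the enzymes of neddylation, the modification that switches cullin ligases on. None was past 2-fold in either direction, against 25.0% of all genes, with a median of 0.19. The median size of their differences, sign left out, was 0.51 against 0.47 for all genes. Those farthest from 0 were Uba3, a subunit of the NEDD8-activating enzyme, at 0.87, Dcun1d1, a NEDD8 ligase factor, at -0.86, Cand1, the exchange factor of cullin adaptors, at 0.86, and the NEDD8 protease gene Senp8 at 0.75. Cul3 itself, named after its value was seen, had log2 levels of 2.20 and 1.57, a difference of -0.62. The spike-in scaling took 3 genes of this list past 2-fold toward slow fibres. The COP9 signalosome removes NEDD8 from cullins. Of its 9 genes, 8 lay within 2-fold and 1 was past it (11.1%, against 25.0% of all genes). The exception, Cops8, had log2 levels of 5.22 and 2.13, a difference of -3.09, but a second Cops8 probe, well above background on both arrays, gave -0.25, so the probes of Cops8 disagreed.

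BTB-Kelch genes under other symbols and known substrates lay within 2-fold under the main scaling (0% past it, against 25.0% of all genes). The spike-in scaling took 2 of the substrate genes past 2-fold toward slow fibres. The 5 genes of the first kind had a median of 0.44, with Enc1 and Ipp each at 0.48, Ivns1abp at 0.44, and Keap1, the adaptor that holds the antioxidant factor Nrf2 in check, at -0.37. Of 16 genes for substrates of other Kelch-like proteins, 14 were measured and 14 lay within 2-fold, with a median of 0.30, and Wnk4 and Aurkb were not well above background. The farthest from 0 were Pdcd6 at 0.87 and Sec31a at 0.69, both tied to the action of KLHL12 on COPII coats, Tiam1 at -0.71 and Gabarapl2 at -0.67.

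**Figure D4:**
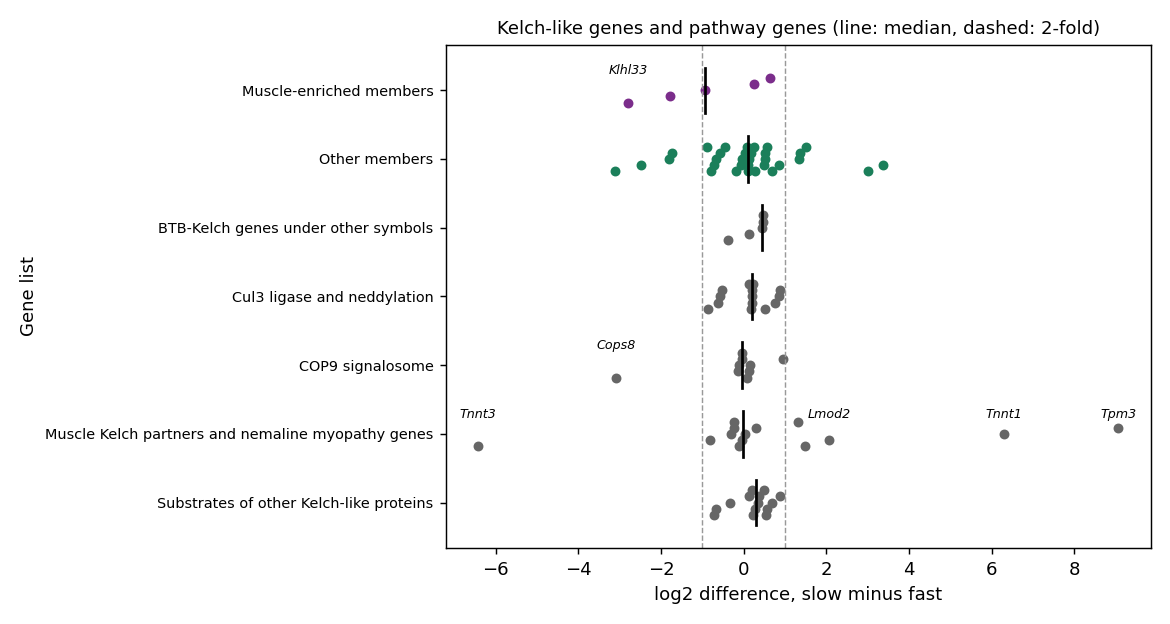
Log2 difference, slow minus fast (horizontal axis), of genes well above background on both arrays, for the muscle-enriched (purple) and other (green) Kelch-like genes and 5 lists of partner genes (grey). Each point is a gene, black lines are medians and dashed lines mark 2-fold. The ligase and substrate lists lie inside the lines under the main scaling, COP9 genes do so except Cops8, and the nemaline myopathy list holds Tpm3, Tnnt1 and Tnnt3 far outside.

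Promoter motifs were searched on both strands in the 250 bases before each listed start. RefSeq windows were at hand for 37 of the 45 members, 49 windows in all. CAGCTG was in 10 of those windows (20.4%, against 13% of 32851 windows over all genes), belonging to 9 genes: Klhl13, Klhl21, Klhl34, Klhl35, Klhl4, Klhl40, Klhl41, Klhl5 and Klhl6. These genes include fast-side, slow-side and undetected members. The looser E-box CANNTG, which contains CAGCTG, was in 55.1% of member windows against 66.2% of all. The MEF2 motif was in 3 member windows (6.12%, against 2.92%), of Kbtbd12, Klhl33 and Klhl41. CATTCC, the core bound by TEAD factors, was in 4 windows (8.16%, against 12.6%), those of Klhl33, Klhl35, Klhl6 and Klhl9. AGGTCA, the half-site of nuclear receptors, was in 2 windows (4.08%, against 14%), those of Klhl33 and Klhl4. A match describes letters in these windows and shows no binding.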

How the data were processed

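The scanner files hold spot intensities on a linear scale, which the authors read out in Agilent Feature Extraction (12.0.3.1 by the submitters' processing notes); per the file headers background was subtracted within an array, with no scaling between arrays. Beside each intensity the deposited files give its software error and flags of detection, saturation and outliers. The authors' deposited value table has these intensities multiplied by 2.83 on the fast and 2.45 on the slow array, with column medians of 30.1 and 27.1, no log and no centring; what the factors scale to is not given in the sources used here. Labelling used 0.1 µg of total RNA and Cy3, per the labels' protocols.

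Control spots and 159 outlier spots were left out, and repeated spots of a probe were averaged. RefSeq accessions of 33763 of 56596 probes (59.7%) matched 23458 genes in a table of build GRCm38.p6, used for names; the array design refers to another build. Log2 intensities were centred on the 75th percentile of each array. For a gene well above background in 1 pool, the fold is a bound against the other array's dim signal or its lowest signal well above background, whichever is higher. With 1 pool per group, a 2-fold size rule replaced a test. The calculation was run on simulated arrays, in which only genes well above background on both arrays were changed, all by more than 2-fold. That run does not cover changes near the 2-fold line or genes detected in 1 pool alone. Alternatives were other scalings, normexp background correction (offset 50, limma 3.58.1 in R 4.3.3), probe choice, the filter on dim probes and the size rule. Other steps used Python 3.11.15 with pandas 2.3.3 and statsmodels 0.14.6.

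The members and gene lists were chosen with earlier results of these data known. Named were the muscle-enriched members, Kbtbd12, Kbtbd13 and Klhl30, every member past 2-fold or detected on 1 array, the brightest others, those nearest the rule, other probes of a member, and up to 4 genes of each partner list. Remaining members were given by value so that each is accounted for. The number of arrays limits the precision; repeated spots of 291 probes had a median SD of 0.05 on the log2 scale, and the software error of members' differences was 0.20 to 0.38 on both arrays.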

Additional observations from a re-analysis of the deposited data

How the results depend on the processing

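Of 440 member values under the alternatives, 387 either stayed past 2-fold on the same side or, for members within 2-fold, moved by less than the software error, 35 of members within 2-fold moved further, 10 lost the 2-fold call, 8 gained it on the same side, and 0 of the called values changed sign. A kept call could still move by more than that error, as for Klhl33 under normexp. Among the 35 was Kbtbd8, at 1.35 with the median over its probes. Scaling on 8 spike-in controls raised the median of all genes by 0.42 and turned the split of genes past 2-fold from 43.0% to 70.5% on the slow side, with 3134 slow and 1312 fast; the authors' value table lowered the median by 0.11, with 36.8% on the slow side. Under the spike-in scaling the median was -0.53 for the muscle-enriched members and 0.52 for the others, and 1 muscle-enriched member, Klhl41, passed 2-fold toward slow fibres. The 2 normexp settings left 787 slow and 995 fast, or 774 and 991, of the genes over the whole array, and 2 of the other members on the slow side in each, Klhl13 and Klhl34. A 3-fold rule also left 2 there, and it left 777 slow and 1069 fast genes in all. A 1.5-fold rule gave 1 muscle-enriched member toward slow and 3 toward fast fibres, 9 others toward slow and 8 toward fast fibres, and 3111 slow and 3379 fast genes in all, and leaving out the filter on dim probes gave 2500 and 3089. Members past 2-fold under all 9 scalings were 2 of 6 on the slow side and 5 of 6 on the fast side, and 32 of 40 kept their sign. Several of the 9, the spike-in scaling and the authors' value table among them, shift the differences of all genes by the same amount. The 9 are therefore not separate checks of a gene. No paired analysis was possible because each group is 1 pool. Dim signals, near the lowest ones well above background (7.21 fast, 8.81 slow), set what could be measured.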

Other observations

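Pairs of members lie next to each other among the protein-coding genes of the RefSeq table. Klhl10 and Klhl11, neighbours on chromosome 11, were both on the slow side, at 1.51 for Klhl10 and at a bound of 0.88 for Klhl11, both from dim signals. Klhl6 and Klhl24, neighbours on chromosome 16, were at 0.09 and 0.49. Kbtbd7 and Kbtbd6, neighbours on chromosome 14, were at 0.12 for Kbtbd7, while Kbtbd6 was on neither array well above background. Whether neighbouring genes vary together was not tested.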
